A study of Mus musculus with 6 samples.

Results

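The 31 genes described here encode semaphorins, plexins and neuropilins: 7 secreted class 3 semaphorins, 13 membrane-bound semaphorins of classes 4 to 7, 9 plexins and 2 neuropilins. They were chosen by symbol (Sema followed by a digit, Plxn, Nrp1 and Nrp2) from the 21887 protein-coding genes of the RefSeq annotation. COUP-TFII, the orphan nuclear receptor encoded by Nr2f2, was mapped by chromatin immunoprecipitation and sequencing in pools of mesonephroi from CD-1 mouse embryos at E14.5. The groups used were 2 samples from XX (female) and 2 samples from XY (male) mesonephroi, both taken with the same rabbit antibody against COUP-TFII; the labels name no mutation and no treatment. Whether the pools behind the 2 samples of a sex were separate is not stated. The mesonephros lies next to the fetal gonad and carries the Wolffian and Müllerian ducts. Each sex has 1 deposited list of peak positions covering both of its samples, with 11175 female and 9846 male peaks, all 300 bp wide and placed on the mm10 build. The lists give no height and no p-value, so replicate error cannot be given and the sequencing depth is unknown. Differences between the lists are therefore given as counts and not tested, and they describe 2 lists rather than the sexes. A peak list has no expression values, so the labelled tissue could not be checked against marker genes.

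Semaphorins are guidance ligands, plexins are their signalling receptors, and neuropilins are co-receptors without a signalling domain of their own. Most secreted class 3 semaphorins bind a neuropilin that is held in a complex with an A-type or D-type plexin, while membrane-bound semaphorins mainly bind plexins directly. Inside the cell, plexins act on small GTPases and the cytoskeleton, and the usual outcome is that an axon, a vessel sprout or a migrating cell turns away. Neuropilins also bind vascular endothelial growth factors. In mouse endothelium COUP-TFII is known as an activator of Nrp2 in lymphatic vessels and as a repressor of Nrp1 in veins. None of this background comes from the present data.

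COUP-TFII peaks were found at 18 of the 31 genes, against 42.2% of all protein-coding genes. Over both lists Sema3a had the most, with 6, and Sema3c, Sema5a, Sema6a and Plxnc1 had 4 each. A peak belongs here to the protein-coding gene whose body is closest to its centre, up to 100 kb away, with a distance of 0 inside a gene. Female peaks were given to 15 of the 31 (48.4%, exact 95% interval 30.2 to 66.9), against 36.9% of all protein-coding genes. Male peaks were given to 14 (45.2%, 27.3 to 64.0), against 35.0% of all protein-coding genes. A peak shared by both lists, with at least 1 bp in common, lay at 10 genes (32.3%, 16.7 to 51.4), against 28.2% of all. Each of these 3 intervals contains the genome-wide share. Both lists had a peak, shared or not, at 11 genes, against 29.8% of all. At least 2 female peaks lay at 9 genes, against 7.91% of all, and at least 2 male peaks at 4, against 6.09%. Of the family's 14 genes of 100 kb and over, 7 had at least 2 female and 4 at least 2 male peaks. Of all 2429 protein-coding genes that long, 607 and 460 did. Female-only peaks lay at 12 genes (38.7%, 21.8 to 57.8), against 13.2% of all, and male-only peaks at 6 (19.4%, 7.45 to 37.5), against 9.55%. In number, the family held 27 female peaks and 20 male peaks, of which 12 were shared, 15 female-only and 8 male-only. The median gene of the family, like the median protein-coding gene, had 0 female and 0 male peaks.

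**Figure D1:**
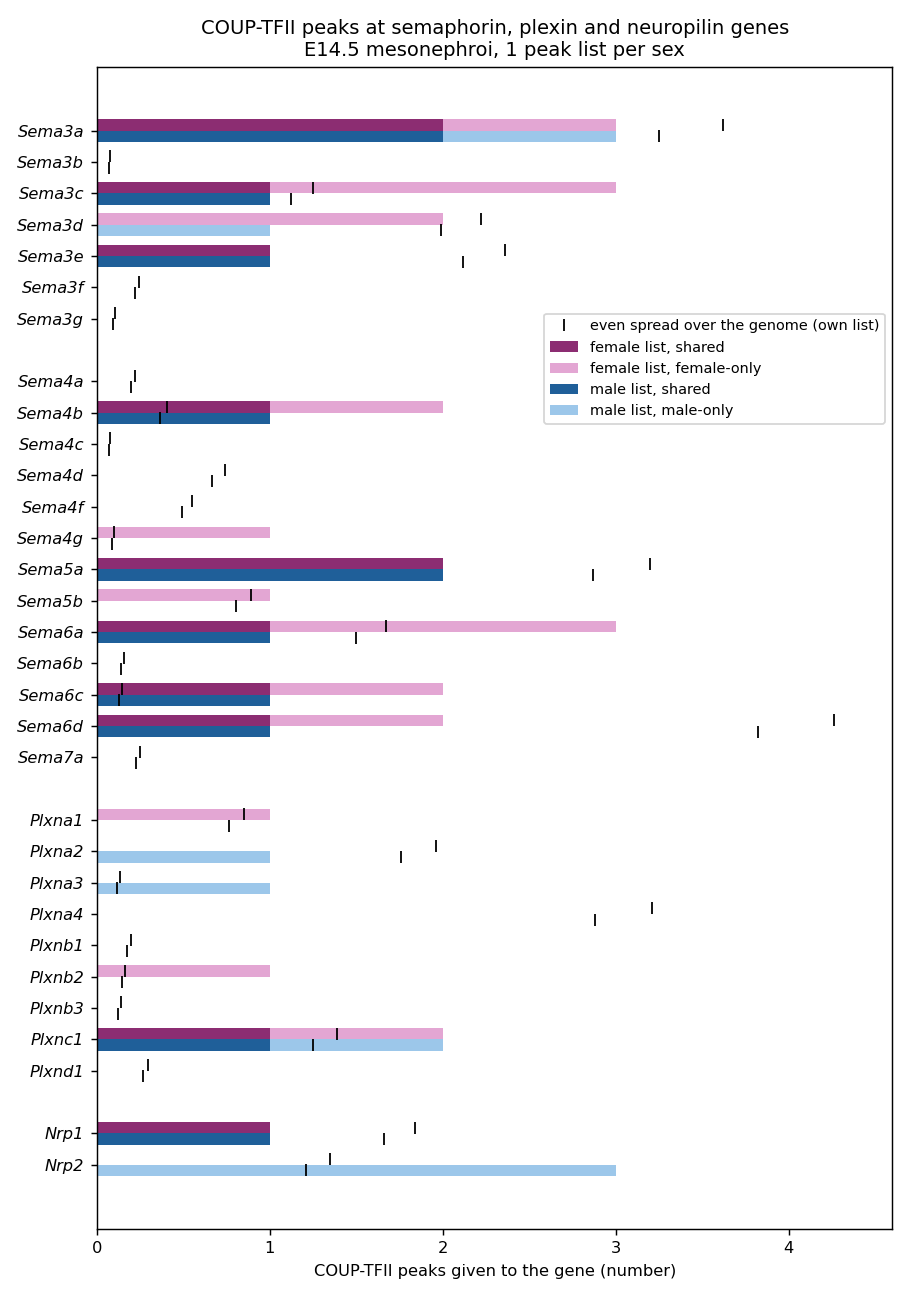
COUP-TFII peaks given to each of the 31 genes, grouped from top to bottom as class 3 semaphorins, membrane-bound semaphorins, plexins and neuropilins. The upper bar of each pair is the female list and the lower bar the male list, dark parts are shared peaks, light parts are in 1 list only, and the black tick is the number that an even spread of that list over the genome would give. Sema3a had 3 peaks in each list, Nrp2 had 3 in the male list alone, and 13 genes had none.

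Many of these genes are long, and long genes collect more peaks. Their median length was 40.5 kb, against 17.2 kb for all protein-coding genes. Among the 14 genes of 100 kb and over, female peaks lay at 10 (71.4%, 41.9 to 91.6) and male peaks at 11 (78.6%, 49.2 to 95.3), against 59.0% and 54.0% of all genes of that length. Among the 14 genes under 30 kb, female peaks lay at 3 (21.4%, 4.66 to 50.8) and male peaks at 2 (14.3%, 1.78 to 42.8), against 29.0% and 27.6% of all genes that short. All 4 of these intervals contain the share of like-sized genes. Of the 3 genes between 30 and 100 kb, 2 had a female peak and 1 a male peak, against 49.0% and 47.0% of all. Shared peaks lay at 8 of the longest 14 genes, 1 of the middle 3 and 1 of the shortest 14, against 43.0%, 37.9% and 22.3% of all genes of those lengths. Female-only peaks lay at 7, 2 and 3 genes of these classes, against 31.5%, 16.9% and 8.73%. Male-only peaks lay at 5 of the longest and 1 of the shortest genes, against 20.2% and 6.54%, and at none of the middle 3. If each list were spread evenly over the stretches of genome nearest to genes, the family would hold 34.1 female, 30.6 male and 23.3 shared peaks, so the observed 27, 20 and 12 were fewer. Peaks of 1 list only were not fewer, with 15 female-only and 8 male-only peaks, against 10.8 and 7.29 from an even spread. An even spread is a crude yardstick, because peaks of both lists gather at gene ends and long genes have few ends for their length. For all genes of 100 kb and over, it gives 4380 female peaks where 2431 were found. At genes under 30 kb it errs the other way, with 3400 female and 3050 male peaks where 4833 and 4453 were found.

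**Figure D2:**
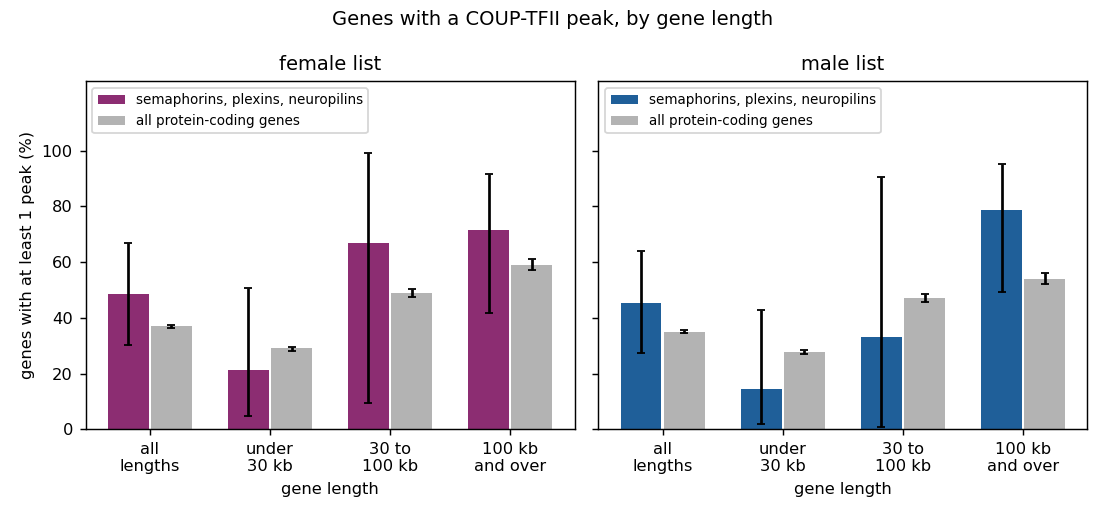
Share of genes with at least 1 COUP-TFII peak (%, bars) by gene length, with the female list on the left and the male list on the right; error bars are exact 95% binomial intervals and cover counting error only. Coloured bars are the semaphorins, plexins and neuropilins (31 genes, of which 14 are under 30 kb, 3 between 30 and 100 kb, and 14 of 100 kb and over) and grey bars are all protein-coding genes; within each class the coloured interval spans the grey value.

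Female peaks of the family lay mostly inside genes and away from their ends, with 18 of 27 inside and over 1 kb from an end (66.7%, 46.0 to 83.5), against 26.2% of all female peaks given to a gene. Male peaks lay there in 6 of 20 cases (interval 11.9 to 54.3%), against 23.3% of all male peaks given to a gene. These shares are not matched for gene length. In the genes of 100 kb and over, 15 of the family's 20 female peaks lay there (interval 50.9 to 91.3%). The share of all female peaks at genes that long was 52.3%, inside that interval. For male peaks it was 6 of 17 (14.2 to 61.7%), against 47.3%, so the family's male share was the lower one at that length. Of the female peaks, 7 of 27 were within 1 kb of an end of their gene (25.9%, exact interval 11.1 to 46.3), against 55.7% of all female peaks given to a gene. For the male peaks this was 9 of 20 (45.0%, 23.1 to 68.5), against 62.5%. The median distance to the nearer gene end was 9.76 kb for female and 2.72 kb for male peaks of the family, against 0.641 and 0.469 kb over all genes. Length moves with this measure as well: in the genes of 100 kb and over, 15.0% of the family's female peaks (3.21 to 37.9) lay near an end, against 32.6% of all female peaks at genes that long. The male values at that length were 35.3% (14.2 to 61.7) and 40.0%. Its part in the lower share near ends was not tested beyond this comparison. Of the family's female peaks 44.4% were shared (25.5 to 64.7), against 68.4% of all female peaks given to a gene, and of its male peaks 60.0% (36.1 to 80.9), against 76.2%. At genes of 100 kb and over, 10 of 20 female peaks of the family were shared (interval 27.2 to 72.8%), against 59.2% of all female peaks at genes that long, and 58.8% of its male peaks (32.9 to 81.6), against 71.9%. Of the 15 female-only peaks, 12 lay inside a gene and over 1 kb from its ends (80.0%, 51.9 to 95.7). This compares with 34.9% of all female-only peaks at genes of any length. Of the 8 male-only peaks none lay there (interval up to 36.9%), against 27.2% of all male-only peaks, while 4 lay within 1 kb of an end and 4 further outside the gene. The 12 shared pairs were close to superposed, with centres a median of 34.5 bp apart (12 to 138 bp), against 33 bp over all shared pairs.

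**Figure D3:**
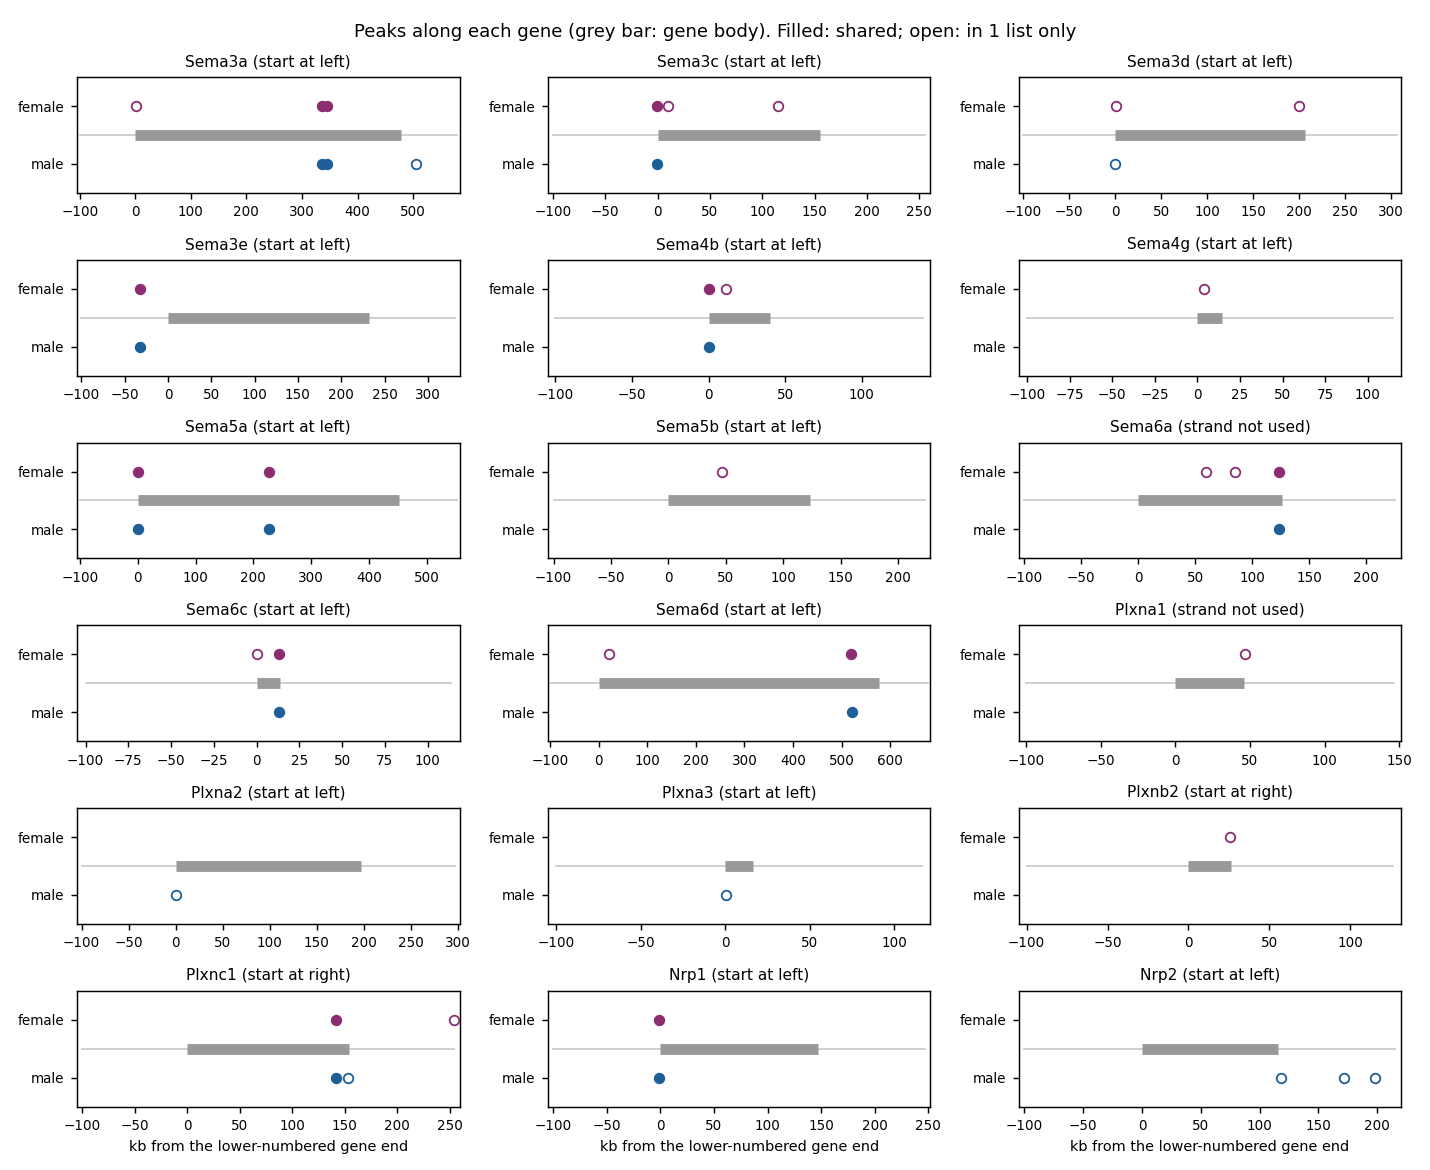
Positions of peaks along the 18 genes that had any, in kb from the gene end with the lower coordinate. The grey bar is the gene body and the thin line the 100 kb on each side. The panel titles say at which side transcription starts, except for Sema6a and Plxna1, where the strand was not used. Circles above the line are female peaks and circles below it male peaks, filled where shared and open where in 1 list only. Shared pairs stand above each other at the starts of Sema3c, Sema4b, Sema5a and Nrp1 and deep inside Sema3a, Sema5a and Sema6d.

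RefSeq promoter windows (250 bases before to 50 after an annotated transcription start, GRCm38.p6) were at hand for 26 of the 31 genes, with 37 windows in all. Sema3b, Sema3f, Sema6a, Plxna1 and Plxna4 have no window in that table. A female peak met a window of 4 of the 26 genes, against 21.7% of the 17492 protein-coding genes with windows, and a male peak met a window of 3, against 21.8%. The 6 windows that a peak met, at 5 genes, are printed 5′ to 3′ on the strand of the gene because they are the stretches of sequence that these peaks share with an annotated start. Capitals mark AGGTCA, the hexamer that nuclear receptors of this class are known to bind, searched on both strands.
Sema3c, chr5:17574566-17574865, plus strand: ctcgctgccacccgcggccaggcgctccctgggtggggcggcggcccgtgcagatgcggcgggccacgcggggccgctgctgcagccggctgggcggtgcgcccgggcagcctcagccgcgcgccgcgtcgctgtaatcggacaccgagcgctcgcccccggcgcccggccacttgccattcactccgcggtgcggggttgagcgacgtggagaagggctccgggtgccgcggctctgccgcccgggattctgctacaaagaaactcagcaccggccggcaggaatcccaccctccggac
Sema4b, first start, chr7:80186620-80186919, plus strand: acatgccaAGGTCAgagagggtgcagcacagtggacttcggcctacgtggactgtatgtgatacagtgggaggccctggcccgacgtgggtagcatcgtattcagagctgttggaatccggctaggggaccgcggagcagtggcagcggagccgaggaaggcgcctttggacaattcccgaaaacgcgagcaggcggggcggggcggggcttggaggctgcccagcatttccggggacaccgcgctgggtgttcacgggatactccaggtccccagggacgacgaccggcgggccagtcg
Sema4b, second start, chr7:80198338-80198637, plus strand: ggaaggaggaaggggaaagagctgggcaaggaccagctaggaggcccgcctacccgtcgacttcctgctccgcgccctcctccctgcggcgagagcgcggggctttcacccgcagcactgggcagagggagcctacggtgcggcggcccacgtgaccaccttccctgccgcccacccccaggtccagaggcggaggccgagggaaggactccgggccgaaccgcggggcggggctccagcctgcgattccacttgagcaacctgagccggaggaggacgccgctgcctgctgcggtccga
Sema5a, chr15:32244563-32244862, plus strand: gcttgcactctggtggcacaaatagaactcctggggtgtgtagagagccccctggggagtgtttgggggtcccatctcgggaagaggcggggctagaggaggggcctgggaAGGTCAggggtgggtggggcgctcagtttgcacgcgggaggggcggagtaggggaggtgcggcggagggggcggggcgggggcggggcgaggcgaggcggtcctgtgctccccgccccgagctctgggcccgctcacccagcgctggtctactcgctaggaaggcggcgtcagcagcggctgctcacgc
Plxna3, chrX:74328816-74329115, plus strand: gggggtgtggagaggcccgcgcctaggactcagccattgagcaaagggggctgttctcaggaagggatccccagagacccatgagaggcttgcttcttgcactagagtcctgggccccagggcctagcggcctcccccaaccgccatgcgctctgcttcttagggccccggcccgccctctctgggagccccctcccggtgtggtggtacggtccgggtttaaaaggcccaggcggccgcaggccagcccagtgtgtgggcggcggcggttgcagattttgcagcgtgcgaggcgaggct
Plxnb2, chr15:89180739-89181038, minus strand: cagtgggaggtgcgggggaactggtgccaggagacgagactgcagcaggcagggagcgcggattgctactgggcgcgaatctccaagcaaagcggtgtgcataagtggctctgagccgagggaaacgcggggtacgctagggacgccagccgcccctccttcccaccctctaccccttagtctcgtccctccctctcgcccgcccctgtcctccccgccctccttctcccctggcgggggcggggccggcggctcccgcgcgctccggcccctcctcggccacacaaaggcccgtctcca

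The female peak covered 278 of the 300 bases at the second start of Sema4b, 216 at Plxnb2, 73 at the first start of Sema4b, 52 at Sema5a and 13 at Sema3c. The male peak covered 263 bases at Plxna3, 70 at Sema5a and 48 at the first start of Sema4b. AGGTCA stood at position 9 of the first Sema4b window and at position 112 of the Sema5a window, counted from the 5′ end of the window, and both copies lay outside the peaks. Over all 37 windows of the family, 7 held AGGTCA on either strand (18.9%), against 14.7% of the 21263 windows of protein-coding genes. The other windows with it belong to Sema4d, Sema6b, Plxnb2 (not the window printed), Plxnd1 and Nrp1. Direct repeats of AGGTCA on either strand with 0, 1 or 2 bases between the copies, which count under AGGTCA too, were in none of the 37, and in 2, 10 and 0 of the 21263. The GC box GGGCGG, searched on both strands and unable by its letters to overlap AGGTCA, was in 27 of the 37 windows (73.0%), against 46.2% of all, and in every one of the 6 printed. Of windows of all genes that met a female peak, 71.0% held it, against 38.4% of windows that met no peak. A match of letters does not show binding, and most peaks of the family lie where no sequence was used here.

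The secreted class 3 semaphorins held 9 female and 6 male peaks at 4 of the 7 genes, and 4 of these peaks were shared. The share of genes with a peak was 57.1% in either list (18.4 to 90.1), against 42.2% of all protein-coding genes. An even spread would give these long genes 9.87 female, 8.87 male and 6.75 shared peaks. Those 4 genes, Sema3d, Sema3a, Sema3e and Sema3c, lie in this order on chromosome 5 within 5.35 Mb (12383161 to 17730268), in a stretch with 22 protein-coding genes in all. Inside the stretch lay 10 female and 7 male peaks, of which 9 and 6 were given to the 4 semaphorins. The other peak of each list went to Cacna2d1.

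**Figure D4:**
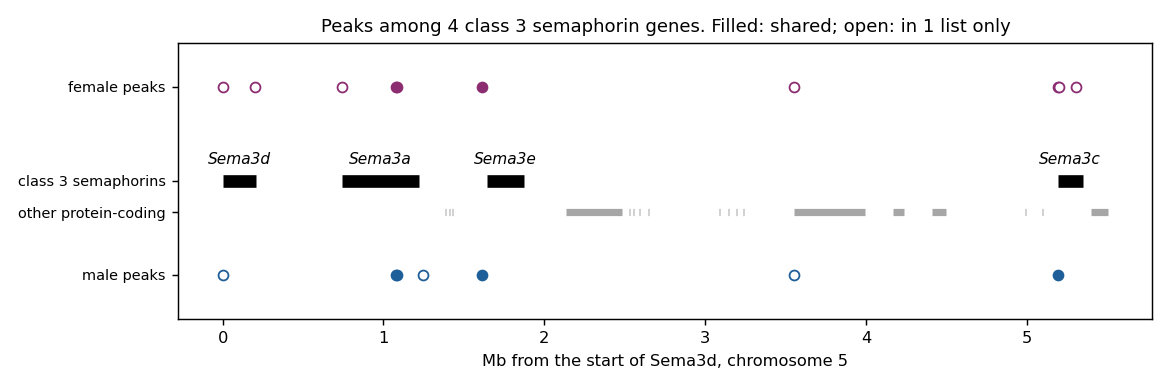
COUP-TFII peaks (female above, male below; filled where shared, open where in 1 list only) along the part of chromosome 5 that holds 4 class 3 semaphorin genes, in Mb from the start of Sema3d. Black bars are the 4 semaphorins and grey bars the other protein-coding genes; 9 of the 10 female and 6 of the 7 male peaks belong to the semaphorins.

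Sema3a, whose protein repels axons and vessel sprouts through Nrp1, had 3 female and 3 male peaks along its 479 kb (chromosome 5, 13124822 to 13603485). Its shared peaks stood close together deep inside the gene, at 13460294 to 13460593 and 13470037 to 13470336 in the female list and 13460254 to 13460553 and 13470016 to 13470315 in the male list. The female positions were 63.7 and 73.4 kb downstream of the start in the promoter table. The female-only peak lay at 13126309 to 13126608, 1.64 kb inside the low-coordinate end of the gene, while the one start in the promoter table lies far downstream of it. The male-only peak lay at 13629074 to 13629373, 25.7 kb beyond the other end. An even spread would put 3.62 female and 3.25 male peaks at a gene with this much territory, so the count at Sema3a was near that number in both lists.

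Sema3c, a guidance ligand of neural crest and vessels in the heart's outflow tract, had 3 female peaks and 1 male peak (17574816 to 17730268). The shared peak lay just before the start, 0.388 kb outside the gene at 17574279 to 17574578 in the female list and 0.525 kb outside it at 17574141 to 17574440 in the male list. These 2 positions overlapped but their centres were 138 bp apart, the widest of the 12 shared pairs. Female-only peaks lay inside the gene at 17584425 to 17584724 and 17689129 to 17689428, which are 9.76 and 114 kb downstream of the start. The nearest male peaks were 9.98 and 115 kb away from them.

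Sema3d, a class 3 ligand known in heart and vein development, had 2 female peaks and 1 male peak and no shared peak (12383161 to 12588953). Near the start of the gene both lists had a peak, at 12384393 to 12384692 in the female list and 12383301 to 12383600 in the male list, 1.38 and 0.284 kb downstream of the start. The gap between them was 0.792 kb, so they count as shared where peaks up to 1 kb apart are paired. The other female peak lay at 12583285 to 12583584, 5.52 kb before the far end of the gene.

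Sema3e, which signals through Plxnd1 without a neuropilin, had 1 shared peak and nothing else. It stood 32.2 kb upstream of the gene, at 13992936 to 13993235 in the female list. Sema3b had no peak in either list, nor had Sema3f, a ligand that acts mainly through Nrp2, or Sema3g, a ligand made by endothelium.

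Among the 13 membrane-bound semaphorins 7 had a peak, with 13 female peaks at 7 genes and 6 male peaks at 5. A female peak lay at 53.8% of them (25.1 to 80.8), against 36.9% of all protein-coding genes, and a male peak at 38.5% (13.9 to 68.4), against 35.0%. All 6 male peaks were shared and the 7 remaining female peaks were female-only, spread over 6 genes. Male-only peaks were given to none of the 13, with an exact interval of 0 to 24.7% of genes, against 9.55% of all protein-coding genes. For female-only peaks the share was 46.2% (19.2 to 74.9), against 13.2%. The difference between the lists was not tested.

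Sema4b had a shared peak at its first start, at 80186847 to 80187146 in the female list and 80186872 to 80187171 in the male list. A female-only peak covered its second start, at 80198316 to 80198615, with the nearest male peak 11.1 kb away. These are the first and second Sema4b windows printed above. Sema4g, which lies on chromosome 19 at 44988743 to 45003397, had 1 female-only peak inside the gene at 44992220 to 44992519, 3.03 kb downstream of the start.

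Sema5a, a semaphorin with thrombospondin repeats, had 2 shared peaks and no other. Its first peak sat on the start of the gene, centred 0.147 kb downstream in the female list and 0.130 kb in the male list (32244811 to 32245110 and 32244793 to 32245092, chromosome 15). The second peak lay 227 kb further in, at 32471702 to 32472001 in the female list and 32471666 to 32471965 in the male list. Sema5b, the nearest relative of Sema5a, had 1 female-only peak inside the gene, 46.8 kb downstream of the start at 35587998 to 35588297 on chromosome 16.

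Sema6a, a ligand of A-type plexins, had 3 female peaks and 1 male peak (chromosome 18, 47245254 to 47371200). The shared peak lay inside the gene, 2.35 kb from its higher-numbered end in the female list (47368705 to 47369004) and 2.36 kb in the male list (47368693 to 47368992), a pair only 12 bp apart. A female-only peak at 47304386 to 47304685 lay 59.3 kb inside the lower-numbered end, and another at 47330170 to 47330469 lay 40.9 kb inside the higher-numbered end. Neither list had any further peak within 100 kb of the gene.

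Sema6c is short (13.6 kb, chromosome 3). Genes under 30 kb as a class held more peaks of both lists than an even spread gives. Sema6c had 2 female peaks and 1 male peak, against 0.145 and 0.130 from an even spread. A female-only peak lay 0.369 kb downstream of the start, at 95160640 to 95160939, and the shared peak near the far end of the gene, at 95173474 to 95173773 in the female list and 95173408 to 95173707 in the male list. Sema6d, a ligand of Plxna1, is the longest gene of the family (578 kb, chromosome 2) and also had 2 female peaks and 1 male peak, against 4.26 and 3.82 from an even spread. Its shared peak stood at 124610208 to 124610507 in the female list and 124610278 to 124610577 in the male list, inside the gene and 57.4 kb from its far end. The female-only peak was 21.2 kb downstream of the outer start, at 124111002 to 124111301. Sema4a, Sema4c, Sema4d, Sema4f, Sema6b and Sema7a had no peak in either list.

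The 9 plexins held 4 female and 4 male peaks at 5 genes, and only Plxnc1 had a shared one. A shared peak at 1 of 9 is 11.1% (0.281 to 48.2), against 28.2% of all protein-coding genes, an interval that includes the genome-wide value. Plxnc1, the receptor for Sema7a, had its shared peak 12.8 kb downstream of the start, at 94931941 to 94932240 in the female list and 94931918 to 94932217 in the male list (chromosome 10, 94790866 to 94945015). A male-only peak stood closer to the start, 0.760 kb downstream at 94943935 to 94944234. The female-only peak at 95044108 to 95044407 was 99.2 kb outside the gene, the most distant of all the family's peaks, and would be lost with a slightly smaller limit than 100 kb.

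The A-type plexins, which are the usual signalling partners of neuropilins, had 1 peak each at 3 of 4 genes, and each peak was in 1 list only. Plxna1 had a female-only peak 0.315 kb outside the gene at 89362778 to 89363077 on chromosome 6. The gene Gm40415 lay 0.337 kb from the same peak on the other side, so the distances to the 2 genes are almost equal. Plxna2 had a male-only peak 0.431 kb downstream of its start at 194620111 to 194620410 on chromosome 1, with the nearest female peak 356 kb away. Plxna3, on the X chromosome, had a male-only peak across its start at 74328779 to 74329078. Plxna4, at 444 kb, was the longest gene of the family without any peak, where an even spread would give 3.21 female and 2.88 male peaks, and no peak of either list lay within 100 kb of it.

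Some B-type plexins bind class 4 semaphorins. Of this type, Plxnb2 had 1 female-only peak just upstream of an annotated start, at 89180823 to 89181122 on chromosome 15. Plxnb1 and Plxnb3 had none, and neither had Plxnd1, the receptor of Sema3e.

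The neuropilins differed from each other. Nrp1 (chromosome 8, 128358591 to 128505476) had 1 shared peak upstream of its start, 0.803 kb outside the gene at 128357638 to 128357937 in the female list and 0.918 kb outside at 128357523 to 128357822 in the male list. The centres were 115 bp apart, and the place also lies inside the noncoding gene A930035F09Rik, which ends at 128358237. Nrp2 (chromosome 1, 62703317 to 62818692) had no female peak and 3 male-only peaks, all beyond the 3′ end of the gene. They lay at 62821624 to 62821923, 62874497 to 62874796 and 62901322 to 62901621, which is 3.08, 56.0 and 82.8 kb outside Nrp2. No female peak was closer to any of them than 275 kb. The next protein-coding genes, Pard3b and Ino80d, were between 146 and 179 kb from these peaks, but noncoding genes were closer: the first peak lies inside Gm4208 and the others 30.3 kb from Gm39652 and 4.70 kb from Gm35252. With genes of every type allowed, no peak of either list belonged to Nrp1 or Nrp2. In the whole family 4 of 31 genes (Sema4g, Sema5b, Plxna1 and Plxnb2) had female peaks alone, against 7.11% of all protein-coding genes, and 3 of 31 (Plxna2, Plxna3 and Nrp2) male peaks alone, against 5.21%.

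Beyond the 100 kb limit and up to 500 kb, the lists held 3 female and 3 male peaks nearest to a gene of the family. They comprised a female-only peak 194 kb from Plxna1, a female-only and a male-only peak 349 and 333 kb from Nrp1, a shared pair 397 kb from Plxna2 and a male-only peak 467 kb from it.

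Partners of the family were looked at in the same way. Of 18 genes for co-receptors, other receptors and related ligands, female peaks were given to 4 (22.2%, 6.41 to 47.6), against 36.9% of all protein-coding genes. Male peaks were given to 5 (27.8%, 9.69 to 53.5), against 35.0%, and shared peaks to 3 (16.7%, 3.58 to 41.4), against 28.2%. Kdr, the main receptor of VEGF and a partner of neuropilins in endothelium, had 3 female and 2 male peaks, 2 of them shared. Flt1, a further VEGF receptor, and Pgf, a VEGF-family ligand, had 1 shared peak each. Met, a receptor kinase that associates with B-type plexins, had 1 female-only peak, and Vegfa and Vegfc, both ligands of neuropilin-containing complexes, 1 male-only peak each. The other 12 had none, among them the adhesion molecules L1cam and Nrcam that accompany neuropilins.

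Of 28 genes for cytoplasmic effectors, 17 had a female peak (60.7%, exact interval 40.6 to 78.5), 15 a male peak (53.6%, 33.9 to 72.5) and 13 a shared peak (46.4%, 27.5 to 66.1). The genome-wide shares of 36.9, 35.0 and 28.2% lie below the first of these intervals, inside the second near its lower bound and inside the third. These genes are also long, with a median of 90.6 kb. Farp1, a guanine nucleotide exchange factor that binds A-type plexins, had 4 shared peaks and no other. Mical3, of the family of oxidases that act on actin, had 3 female and 2 male peaks, 2 of them shared. Limk1 and Gsk3b, kinases of the cytoskeletal response, had 2 shared peaks each, and Rac1, Pak1, Rock1, Rock2 and Tiam1 had 1 each. The collapsin response mediators Dpysl4 and Dpysl5 each had 1 shared peak and Dpysl3 had 2 female-only peaks, while Crmp1 and Dpysl2 had none. Mical1, Mical2, Cdk5, Cfl1, Fes, Rnd1 and Rras also had no peak in either list.

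The other large guidance families (ephrins and their receptors, Slits, Robos, netrins and netrin receptors, 41 genes) gave like shares of genes with a peak. Those genes are longer, with a median of 69.0 kb against 40.5 kb. They held 34 female, 26 male and 17 shared peaks, where an even spread would give 72.6, 65.2 and 49.6. The family described here held 27, 20 and 12, where it would give 34.1, 30.6 and 23.3. At least 2 female peaks lay at 7 of the 41 genes and 9 of the 31, and at least 2 male peaks at 7 and 4. Female peaks lay at 15 of 31 genes in the family described here and at 24 of 41 in those (48.4% and 58.5%), male peaks at 14 and 18 (45.2% and 43.9%), and shared peaks at 10 and 14 (32.3% and 34.1%). Female-only peaks lay at 12 and 16 genes (38.7% and 39.0%), and male-only peaks at 6 and 9 (19.4% and 22.0%). Their intervals overlap throughout, and no test of a difference was made.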

How the data were processed

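For each sex the authors deposited a single list of COUP-TFII peaks, which the labels attach to both samples. The submitters' processing notes list mm10, bedtools 2.24.0, HOMER 4.10.3, Bowtie 1.2, Picard and cutadapt with no step assigned to any. The peak threshold, and the joining of replicates, were not given in the sources used here. Titles, tissue and antibody, which name COUP-TFII and mesonephroi, were followed where the labels' extraction text names RUNX1 and ovaries. Input and signal were not analysed here. The only values deposited by the authors are positions, so depth is unknown and intervals (exact Clopper-Pearson, 95%) cover counting error only.

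Peaks were given to RefSeq genes of GRCm38.p6, the assembly of mm10, by their centre, with ties to the nearer gene end. Of the female peaks 93.5% received a gene, and of the male peaks 95.3%. The gene table has no exons, so exonic and intronic places are not separated; strand and starts came from the RefSeq promoter table. Even-spread numbers divide each list by the length of genome nearest to each gene. Every gene of the family is accounted for, and all positions are given for genes with 3 or more peaks over both lists or with peaks in 1 list. All 46 symbols of the 2 partner lists were matched. The members and lists were chosen with earlier results of these data known. Assignment was checked on planted peaks and overlap against bedtools. Alternatives were other definitions of a shared peak and other rules of assignment. Python 3.11.15 with pandas 2.3.3, numpy 2.4.6 and SciPy 1.17.1 was used.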

Additional observations from a re-analysis of the deposited data

How the results depend on the processing

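No paired analysis was possible because each sex has 1 list over both replicates and no result comes from a test; for the same reason leaving out a replicate was not run, and a setting on peak scores was not run because the lists hold none. Of 80 values recomputed, 67 kept within 1.5 times the reported count or inside its interval. The largest effect came from keeping only peaks within 1 kb of an end of the gene, which by construction drops the others. That left 7 female, 9 male, 5 shared, 2 female-only and 4 male-only peaks, with female peaks at 6 genes, male peaks at 9, shared peaks at 5 and female-only peaks at 2. Male-only peaks numbered 5 with a 10 kb limit, 5 with genes of every type and 4 by the nearest transcription start, mainly through Nrp2. By the nearest start female-only peaks numbered 9, and genes without a promoter window receive none by construction. Sema4g, with female peaks alone under the main rule, had 2 female peaks and 1 male peak by the nearest start, with 1 shared. With centres within 100 bp required, the shared peaks at Sema3c and Nrp1 became 1 female-only and 1 male-only peak each. By the nearest gene end both shared peaks inside Sema3a and the inner one of Sema5a lay over 100 kb from any end and received no gene. Depth, which decides how many peaks pass a caller's threshold, is unknown for both lists.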

Other observations

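Several short genes of the family without a peak lie among peaks that belong to their neighbours. Within 100 kb of Sema3b on chromosome 9 lay 7 female and 7 male peaks, and all were given to other genes, among them Hyal2, Ifrd2, Rassf1, Slc38a3 and Tusc2; 17 other protein-coding genes lie in that stretch. Around Sema3f there were 4 female and 3 male peaks, and around Sema4a 5 and 3. In contrast Sema4f, Sema7a and Plxna4 had no peak of either list within 100 kb. Whether a distant peak acts on the nearest gene or on a neighbour was not tested.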
